A study of Homo sapiens with 18 samples.

Results

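Inflammatory chemokine mRNAs were described in U2OS cells, a human osteosarcoma line, after knockdown of ANKRA2 or RFXANK and after treatment with Nutlin-3a. The group holds 10 genes, CCL2, CCL3, CCL5, CCL20, CXCL1, CXCL2, CXCL3, CXCL5, CXCL6 and CXCL8, out of 26702 genes with values. It was chosen by measured values, since CCL3 and CCL20 rise after the knockdowns. The knockdown values of CCL3 and CCL20 are therefore given as a description with no test. So are the differences computed from them and the Nutlin-3a responses of both genes. Of the 10 genes, 7 had values and 6 of these had values in all 6 comparisons, the exception being CXCL5. CXCL1, CXCL2 and CXCL6 were not analysed here.

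There were 18 libraries of polyadenylated RNA in 6 groups of 3. Cells received the siControl, siANKRA2 or siRFXANK siRNA and were treated for 24 h with 10 µM Nutlin-3a, an inhibitor of the MDM2 protein that stabilizes p53, or with DMSO, its solvent. Each knockdown was made with the siRNA named and compared with siControl alone, in a single cell line. The siRFXANK samples were registered separately from the others, with sample labels of another form, which call the cells epithelial, and without siControl samples of their own. In any comparison of siRFXANK with siControl, a batch and the knockdown cannot be told apart. Nothing in the labels says that the 3 libraries of a group came from separate cultures. The p-values of the authors rest on a spread between libraries that is estimated per gene over their whole fit. They need not reflect a spread between cultures or within the compared groups alone.

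Chemokines are small secreted proteins that guide leukocytes along concentration gradients by binding G protein-coupled receptors. The CC and CXC families are named for the spacing of their first cysteines. Inflammatory chemokines are produced on demand by many cell types, including fibroblast-like and tumour cells, and their genes are classical targets of NF-kB, AP-1 and C/EBP transcription factors. ANKRA2 and RFXANK are related ankyrin repeat proteins, and RFXANK is a subunit of the RFX complex that drives MHC class II genes.

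The promoters of the members are shown because the comparisons below concern knockdown of partners of DNA-binding proteins. RefSeq promoters on GRCh38.p14 were given for 8 of the 10 members, and 250 bases before the start were searched on both strands. The kappaB consensus of NF-kB was found in 6 of the 8, which were CCL20, CXCL1, CXCL2, CXCL3, CXCL5 and CXCL6, and in 9.57% of 27305 promoters. The AP-1 letters TGANTCA were found in CXCL8 and in 6.6% of promoters. The C/EBP letters TTGCNNAA were found in CCL3 and CXCL2 and in 9.13% of promoters. The letters GTTGCC, one arm of the RFX motif, were found in CCL20 and in 10.1% of promoters. The consensus decamer of p53 was found in 0 of the 8 and in 5.53% of promoters. TATAAA was found in CCL3, CCL20 and CXCL8 and in 11.1% of promoters. These matches describe letters, and the lack of a match says only that the letters are not in this window.

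The sequences upstream of CCL3, CCL20 and CXCL8, the members with the largest folds after siANKRA2 in DMSO, are given 5′ to 3′ on the strand of the gene without bases that GENCODE counts as exon. Capitals mark the C/EBP match in CCL3 (chr17:36090170-36090293, minus strand), the kappaB match and then the RFX match in CCL20 (chr2:227813692-227813821, plus strand), and the AP-1 match in CXCL8 (chr4:73740419-73740505, plus strand). The CCL20 sequence is upstream of the RefSeq start, but it lies inside the span that GENCODE gives the gene (chr2:227805739-227817564). The kappaB matches of CXCL3 (chr4:74038748-74038777, minus strand) and CXCL5 (chr4:73998748-73998777, minus strand) are given in windows of 30 bases for comparison with CCL20. Unlike the sequences of CCL3, CCL20 and CXCL8, these windows lie in bases that GENCODE counts as exon. Their capitals cover a pair of matches on opposite strands that overlap.
CCL3: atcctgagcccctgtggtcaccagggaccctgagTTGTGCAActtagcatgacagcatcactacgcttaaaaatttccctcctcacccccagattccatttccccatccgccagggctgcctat
CCL20: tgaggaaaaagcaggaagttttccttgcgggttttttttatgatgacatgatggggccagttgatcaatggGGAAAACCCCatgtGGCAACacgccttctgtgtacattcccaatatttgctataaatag
CXCL8: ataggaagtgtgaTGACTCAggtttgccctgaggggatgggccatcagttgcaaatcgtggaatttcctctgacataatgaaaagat
CXCL3: tggagctccGGGAATTTCCCtggcccggcc
CXCL5: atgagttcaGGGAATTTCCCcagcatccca

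The files analysed here hold fitted comparisons only, so the depth of a library is unknown and overlap between libraries of different groups could not be examined. Group levels were instead recovered from the standard errors of the fold changes, and they are approximate. They are given in normalized counts, as means over 3 libraries with a 95% interval for counting and replicate error. Their scale is uncertain for some members. The deposited mean was 0.490 times the mean of the recovered levels for CCL3. It was 0.492 times for CCL20, 0.558 times for CCL2 and 2.38 times for CCL5. The median of this ratio was 0.988 over 13102 genes with a deposited mean of at least 100. Its 1st and 99th percentile were 0.615 and 1.49. ANKRA2 was left out of this summary. Its deposited mean of 31567.7 was 153 times the mean of its recovered levels, 207, and the reason was not tested. Fold changes do not depend on this scale. Levels and bounds scaled to the deposited mean, given below, take that mean as an even average over the 6 groups, which was not tested. The comparisons come from a single fit and share libraries, those of siControl above all. A level of 3 or less was taken as the floor, and a level under 10 was marked as low. Of the 42 recovered levels of the 7 members, 4 were at or under the floor and 12 were low.

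ANKRA2 mRNA had a log2 fold change of -1.81 (SE 0.18) after siANKRA2 in DMSO and -2.58 (SE 0.12) in Nutlin-3a. RFXANK mRNA had one of -2.96 (SE 0.10) and -3.16 (SE 0.10) after siRFXANK. The tables do not state the direction of the knockdown comparisons, and they were read so that the targeted mRNA was lower. For siANKRA2 this reading rests on ANKRA2, whose deposited mean is out of scale with its recovered levels, as given above. The p53 targets CDKN1A and MDM2 rose with Nutlin-3a in siControl cells, with log2 fold changes of 3.27 (SE 0.04) and 3.38 (SE 0.05). All 6 mesenchymal markers had values, with summed group levels of 155070 to 193108 normalized counts, COL1A1, VIM and SPARC being the most abundant. Of 7 leukocyte markers, 6 had values, and their summed level was 57.8 to 211. The deposited mean was 92.4 for ITGAM and 30.9 for CSF1R, which made up most of this sum, 3.81 for the pan-leukocyte gene PTPRC, 2.59 for CD14, 2.59 for CD68 and 1.87 for HLA-DRA. From DMSO to Nutlin-3a the leukocyte sum went from 84.3 to 211 with siControl, from 128 to 208 with siANKRA2, and from 57.8 to 187 with siRFXANK. Its part in the chemokine values was not tested. Epithelial markers summed to 32322.8 to 59072.9, mostly KRT8 and KRT18, with EPCAM at a deposited mean of 161 and CDH1 at 32.9.

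CCL3, which recruits monocytes and T cells, ranged from near the floor to a level of 769 normalized counts. Its gene lies at chr17:36088256-36090169 on the minus strand (hg38), in the CC chemokine cluster. The recovered CCL3 level was 4.33 normalized counts in siControl cells in DMSO (95% interval 2.48 to 7.55) and 11.1 in Nutlin-3a (7.72 to 15.9). It was 224 in siANKRA2 cells in DMSO (195 to 258) and 769 in Nutlin-3a (678 to 871). In siRFXANK cells it was 13.0 in DMSO (9.30 to 18.2) and 508 in Nutlin-3a (447 to 578). CCL3 was thus high in both siANKRA2 groups, but in siRFXANK cells only in the Nutlin-3a group. The siControl DMSO level is low-marked, and the intervals of siControl in Nutlin-3a and siRFXANK in DMSO overlap. In bulk RNA, more cells that make a transcript and more transcript per cell cannot be told apart.

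CCL20, the ligand of CCR6 that attracts dendritic cells and Th17 cells, lies at chr2:227805739-227817564 on the plus strand, away from the other members. Its recovered level was 21.3 in siControl cells in DMSO (95% interval 16.2 to 28.1) and 32.2 in Nutlin-3a (25.5 to 40.7). In siANKRA2 cells it was 689 in DMSO (605 to 785) and 532 in Nutlin-3a (466 to 608). In siRFXANK cells it was 16.7 in DMSO (12.3 to 22.6) and 117 in Nutlin-3a (99.2 to 137). Both siANKRA2 groups lay far above all others for CCL20, and the siRFXANK Nutlin-3a group stood between them and the rest.

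**Figure D1:**
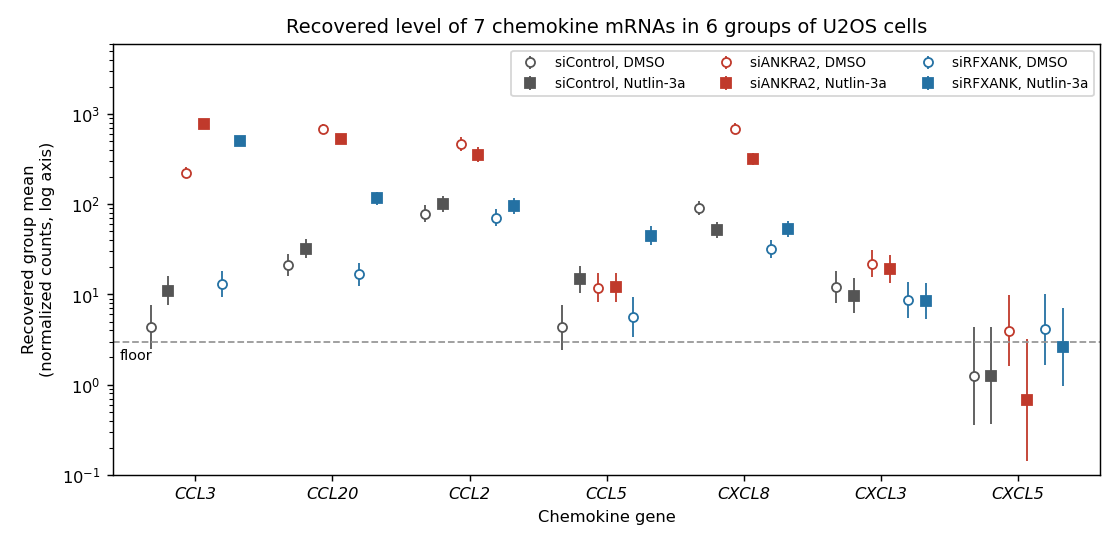
Recovered group level of 7 chemokine mRNAs (y axis, normalized counts, log axis) by gene (x axis) in 6 groups of U2OS cells, with open circles for DMSO, filled squares for Nutlin-3a, and bars for the 95% interval. CCL3 spans 4.33 to 769 and CCL20 spans 16.7 to 689, while CXCL5 stays between 0.669 and 4.10, and the dashed line is the floor of 3.

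The first question was what siANKRA2 did to the other chemokines in unstimulated cells. In DMSO, 3 of the 5 members other than CCL3 and CCL20 rose and 0 fell at an adjusted p under 0.05, the value deposited from DESeq2 and used for all tables below. Of all 26702 genes tested, 24.3% rose and 24.5% fell. The median log2 fold change of the 5 was 1.67, beside 0.01 over all genes. This median is the value of CXCL5, whose siControl level was under the floor, and without CXCL5 the median of the other 4 was 2.02. CXCL8, CCL2 and CCL5 were the members that rose.

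CXCL8, the main neutrophil attractant and a ligand of CXCR1 and CXCR2, lies at chr4:73740506-73743716 on the plus strand. Its recovered level was 90.6 in siControl cells (95% interval 76.0 to 108) and 688 in siANKRA2 cells (599 to 789), both in DMSO. This was a 7.59-fold rise (log2 fold change 2.92, SE 0.16, adjusted p = 1.8e-69). The promoter window shown above holds the AP-1 letters, and its kappaB search gave no exact match in 250 bases. The window does hold tggaatttcc, which differs only in its first base from the kappaB match GGGAATTTCC of CXCL3. The lack of an exact match therefore does not show that CXCL8 lacks a kappaB site.

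CCL2, the monocyte attractant that acts on CCR2, lies at chr17:34255218-34257203 on the plus strand. Its level was 78.9 in siControl cells (63.8 to 97.6) and 470 in siANKRA2 cells (393 to 561) in DMSO. This was a 5.95-fold rise (log2 fold change 2.57, SE 0.20, adjusted p = 2.7e-35). CCL2 and CXCL8 had the highest levels per kb of exon among the members in siControl DMSO cells, so their rises started far above the floor. Scaled to the deposited mean, they were at 22.2 and 29.7 per kb.

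CCL5, a T-cell and monocyte attractant, lies at chr17:35871491-35880793 on the minus strand. Its level in DMSO was 4.32 in siControl cells (2.43 to 7.66), which is low-marked, and 11.9 in siANKRA2 cells (8.20 to 17.3). The log2 fold change was 1.47 (SE 0.50, adjusted p = 0.0088). CXCL3 and CXCL5, neutrophil attractants of the ELR-positive CXC class, had log2 fold changes of 0.86 (SE 0.39, adjusted p = 0.057) and 1.67 (SE 1.14, adjusted p = 0.23). CXCL3 passed the threshold when the adjustment was limited to genes with a deposited mean of at least 10 (adjusted p = 0.042).

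For comparison, the CCL3 level was 51.9-fold higher in siANKRA2 than in siControl cells in DMSO (95% interval 29.2 to 92.1, log2 fold change 5.70, SE 0.42). When the recovered levels were scaled to the deposited mean, siControl fell under the floor, and CCL3 was at least 36.68-fold higher. CCL20 was 32.3-fold higher (23.8 to 43.7, log2 fold change 5.01, SE 0.22). These are the values that chose the group.

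In Nutlin-3a, 3 of the 5 other members were higher in siANKRA2 than in siControl cells and 0 were lower, beside 24.6% and 25.5% of all genes. Their median log2 fold change was 0.98, beside -0.01 over all genes, and 1.41 without CXCL5. CXCL8 was at 52.0 (95% interval 42.4 to 63.7) in siControl and 317 (274 to 366) in siANKRA2 cells, a 6.10-fold rise (log2 fold change 2.61, SE 0.18, adjusted p = 3.1e-44). CCL2 was at 99.6 (81.2 to 122) and 356 (297 to 427), a 3.58-fold rise (log2 fold change 1.84, SE 0.20, adjusted p = 4.2e-19). Both genes were thus past the threshold with and without Nutlin-3a.

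CXCL3 was at 9.71 in siControl and 19.1 in siANKRA2 cells in Nutlin-3a, with a log2 fold change of 0.98 (SE 0.42, adjusted p = 0.039). CCL5 was at 14.7 and 12.04, with a log2 fold change of -0.29 (95% interval -1.03 to 0.45, adjusted p = 0.57). CXCL5 did not exceed the floor in either group and had no usable fold. CCL3 was 69.5-fold higher (47.4 to 102) and CCL20 16.5-fold higher (12.6 to 21.6).

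**Figure D2:**
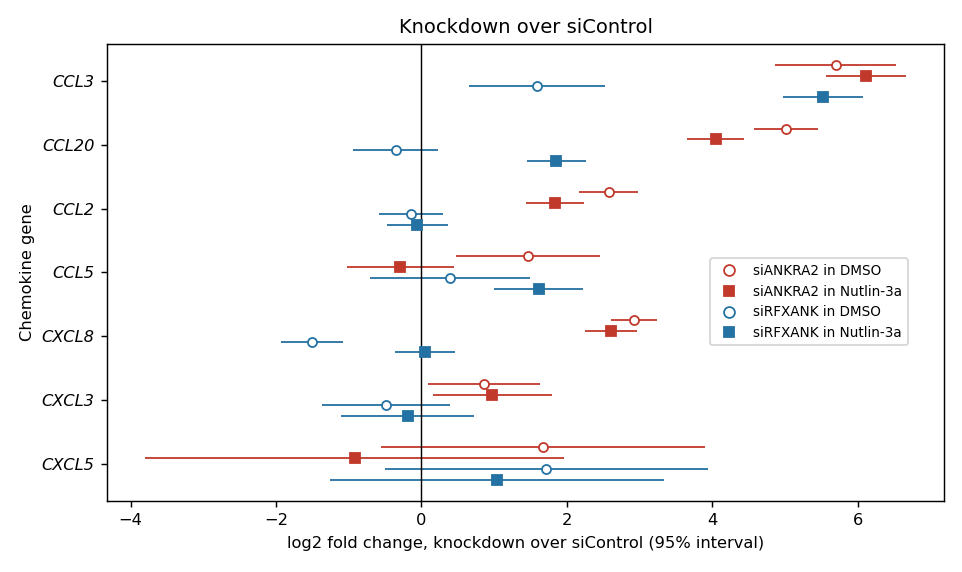
log2 fold change of each chemokine mRNA (x axis, with 95% intervals) for knockdown over siControl, by gene (y axis), with red for siANKRA2, blue for siRFXANK, open circles for DMSO and filled squares for Nutlin-3a. For CXCL8 the siANKRA2 points are at 2.92 and 2.61 and the siRFXANK points at -1.50 and 0.05.

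The same question was asked of siRFXANK, with the limit that these libraries may form a batch of their own. In DMSO, 0 of the 5 other members were higher and 1 was lower, beside 20.9% and 21.2% of 25909 genes. Their median log2 fold change was -0.15, beside 0.01 over all genes, and -0.32 without CXCL5. The lower gene was CXCL8, at 90.6 in siControl and 32.0 in siRFXANK cells (25.2 to 40.6). Its level fell 2.83-fold (log2 fold change -1.50, SE 0.22, adjusted p = 4.4e-11), so that CXCL8 had opposite signs under the knockdowns in DMSO.

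CCL2 was at 78.9 in siControl and 71.3 in siRFXANK cells in DMSO, with a log2 fold change of -0.15 (95% interval -0.59 to 0.29, adjusted p = 0.66). CCL5 was at 4.32 and 5.65, both low-marked, with a log2 fold change of 0.39 (-0.71 to 1.49). CXCL3 had a log2 fold change of -0.48 (-1.36 to 0.40) and CXCL5 of 1.72 (-0.50 to 3.94). CCL3 was 3.01-fold higher (1.57 to 5.75) and CCL20 had a fold of 0.781 (0.519 to 1.18). With siControl scaled under the floor, CCL3 was at least 2.12-fold higher.

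In Nutlin-3a, 1 of the 5 other members was higher in siRFXANK than in siControl cells and 0 were lower, beside 19.8% and 19.6% of 25116 genes. Their median log2 fold change was 0.05, beside 0.02 over all genes, and about 0 without CXCL5. The gene was CCL5, at 14.7 in siControl (10.4 to 20.8) and 45.0 in siRFXANK cells (35.2 to 57.6), a 3.06-fold rise (log2 fold change 1.61, SE 0.31, adjusted p = 1.1e-06). CXCL8 was at 52.0 and 53.7, with a log2 fold change of 0.05 (95% interval -0.37 to 0.46). CCL2 was at 99.6 and 95.7, with a log2 fold change of -0.06 (-0.48 to 0.36). CXCL3 had a log2 fold change of -0.19 (-1.11 to 0.73). CCL3 was 45.9-fold higher (31.3 to 67.4) and CCL20 3.62-fold higher (2.72 to 4.82). CCL2 thus showed no change past the threshold in either siRFXANK comparison, with intervals that exclude the siANKRA2 values of 2.57 and 1.84.

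Nutlin-3a itself was then considered in each transfection. In siControl cells, 1 of the 5 members other than CCL3 and CCL20 rose and 1 fell, and 21.9% and 21.2% of 25909 genes did so. CCL5 rose from 4.32 to 14.7 (log2 fold change 1.77, SE 0.49, adjusted p = 0.001). CCL3 was at 4.33 in DMSO and 11.1 in Nutlin-3a (log2 fold change 1.35, SE 0.49). This is given as description, since its siControl levels enter the values that chose the group. CXCL8 fell from 90.6 to 52.0 (log2 fold change -0.80, SE 0.20, adjusted p = 0.00019). CCL5 and CCL3 started from low-marked levels, and CXCL8 from a level far above the floor.

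CCL20 had a log2 fold change of 0.59 (SE 0.27) in siControl cells, also given as description. CCL2 had one of 0.34 (SE 0.22, adjusted p = 0.22). CXCL3 had one of -0.31 (SE 0.44) and CXCL5 of 0.02 (SE 1.28).

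In siANKRA2 cells, 0 of the 4 measured members other than CCL3 and CCL20 rose and 1 fell. Over all 22738 genes, 15.5% rose and 17% fell. CCL3 was 3.43-fold higher in Nutlin-3a than in DMSO, at 769 and 224 (log2 fold change 1.78, SE 0.14), given as description. CXCL8 fell 2.17-fold, from 688 to 317 (log2 fold change -1.12, SE 0.15, adjusted p = 4.8e-13). CCL20 was at 689 in DMSO and 532 in Nutlin-3a (log2 fold change -0.37, SE 0.14), also given as description. CCL3 and CXCL8 thus moved in the same direction with Nutlin-3a as in siControl cells, at levels well above the floor.

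CCL2 had a log2 fold change of -0.40 (95% interval -0.76 to -0.03, adjusted p = 0.09) in siANKRA2 cells, CCL5 of 0.01 (-0.76 to 0.79) and CXCL3 of -0.19 (-0.91 to 0.52). CCL5 was at 11.9 in DMSO and 12.04 in Nutlin-3a in these cells.

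No table compares Nutlin-3a with DMSO in siRFXANK cells, so this response was derived from 3 tables that share libraries. It was higher for 2 of the 5 members other than CCL3 and CCL20 and lower for 0, with 22.8% and 22.5% of 25116 genes past an adjusted p of 0.05 in each direction. CCL5 rose 7.96-fold, from a low-marked 5.65 to 45.0 (log2 fold change 2.99, SE 0.41, adjusted p = 3.2e-12). CXCL8 rose 1.68-fold, from 32.0 to 53.7 (log2 fold change 0.75, SE 0.23, adjusted p = 0.0034). CXCL8 thus rose with Nutlin-3a in siRFXANK cells and fell with it in the other cells. CCL2 had a log2 fold change of 0.43 (SE 0.22, adjusted p = 0.11). CCL3 was 39.1-fold higher in Nutlin-3a than in DMSO (27.3 to 55.9) and CCL20 7.0-fold higher (4.96 to 9.87), given as description.

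**Figure D3:**
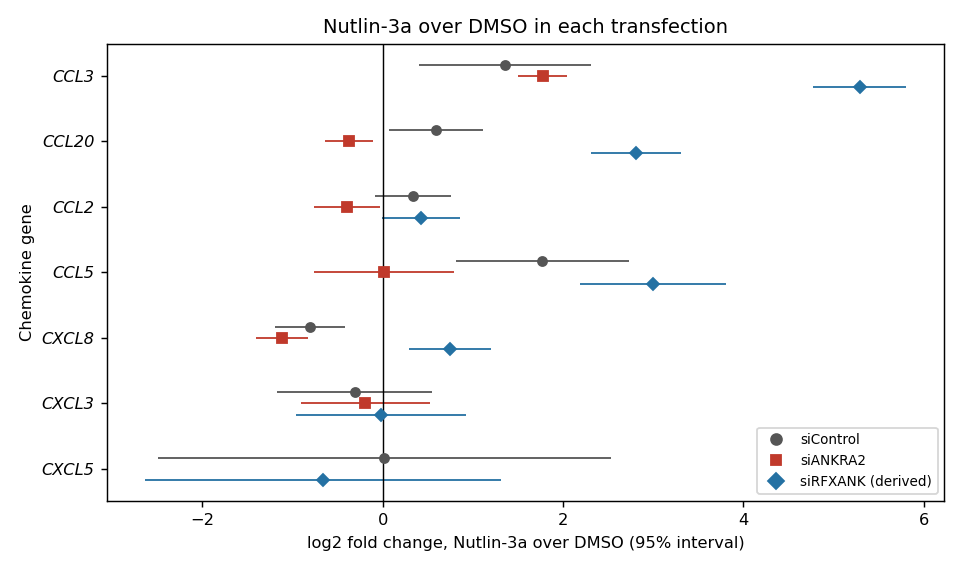
log2 fold change of each chemokine mRNA (x axis, with 95% intervals) for Nutlin-3a over DMSO, by gene (y axis), with grey circles for siControl, red squares for siANKRA2 and blue diamonds for siRFXANK, whose values were derived. CXCL8 is at -0.80, -1.12 and 0.75 in these cells, and CCL3 at 1.35, 1.78 and 5.29.

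Whether the Nutlin-3a response differed between cells was tested on the difference itself, with a normal test adjusted over all genes. For siANKRA2 minus siControl, the difference was lower for 2 of the 4 measured members other than CCL3 and CCL20 and higher for 0, beside 12.5% and 11.4% of 22738 genes. It was -1.76 for CCL5 (SE 0.63, adjusted p = 0.025) and -0.73 for CCL2 (SE 0.29, adjusted p = 0.044) on the log2 scale. For CCL2 the adjusted p was 0.052 when the same difference was taken from the knockdown tables. For CXCL8 it was -0.32 (95% interval -0.80 to 0.17, adjusted p = 0.42). CCL3 had a difference of 0.42 (SE 0.51) and CCL20 of -0.97 (SE 0.30).

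For siRFXANK minus siControl, the difference was higher for 1 of the 5 other members and lower for 0, beside 11.6% and 9.64% of 25116 genes. The gene was CXCL8, with a difference of 1.55 (SE 0.30, adjusted p = 8.3e-06). CCL5 had a difference of 1.22 (95% interval -0.03 to 2.48, adjusted p = 0.18) and CCL2 of 0.09 (-0.52 to 0.70). CCL3 had one of 3.93 (SE 0.55) and CCL20 of 2.21 (SE 0.37). An effect of siRFXANK on the response and a batch effect that differs between DMSO and Nutlin-3a cannot be told apart here.

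The order of the members was compared per kb of annotated exon. In siControl DMSO cells, CXCL8 was at 39.8 and CCL2 at 39.7 normalized counts per kb, followed by CCL20 at 13.4, CXCL3 at 5.43, CCL3 at 2.90, CCL5 at 2.85 and CXCL5 at 0.491. In siANKRA2 DMSO cells, CCL20 came first at 432 per kb, before CXCL8 at 302, CCL2 at 236 and CCL3 at 150. With levels scaled to the deposited mean, CXCL8 came first at 226 and CCL20 stood at 213. In siANKRA2 cells in Nutlin-3a, CCL3 came first at 515 per kb, before CCL20 at 334. In siRFXANK cells in Nutlin-3a, CCL3 was at 340 per kb, before CCL20 at 73.2, CCL2 at 48.2, CCL5 at 29.8 and CXCL8 at 23.6. With scaled levels CCL3 stayed first at 167, and CCL5 came before CCL20, at 70.8 and 36.0. The first place of CCL3 in both knockdowns with Nutlin-3a held on either scale. Genes at neighbouring levels, such as CXCL8 and CCL2 in siControl cells, were not separated.

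Reads of some members may be shared with other genes. Of the longest CCL3 transcript, 57.2% of bases lay in stretches of 31 bases that also occur in CCL3L1, its paralog 106613 bases away between gene starts, and 58.6% of the longest CCL3L1 transcript occurs in CCL3. For CCL5 the share was 33.0%, for CXCL3 19.7% with CXCL2 and CXCL1, and for CXCL5 15.6%, while it was 0 for CCL2, CCL20 and CXCL8. CCL3 and CCL5 also overlap annotated genes on the opposite strand, and the use of strand in counting is not given in the sources used here. The values of CCL3, CCL5, CXCL3 and CXCL5 are uncertain to that extent.

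CCL3L1 and CCL4, neighbours of CCL3 on chromosome 17, and CCL7, a monocyte attractant related to CCL2, were looked at after the values were seen. CCL3L1 had log2 fold changes of 2.23 (SE 0.51, adjusted p = 3.5e-05) and 1.43 (SE 0.27, adjusted p = 5.8e-07) after siANKRA2 in DMSO and Nutlin-3a. After siRFXANK it had 1.06 (SE 0.55, adjusted p = 0.11) and 3.0 (SE 0.26, adjusted p = 2.5e-30). CCL4, another monocyte and T-cell attractant, starts 15334 bases from the CCL3 start, and 39.8% of its longest transcript also occurs in CCL4L2. In DMSO its recovered level was under the floor in siControl and 77.4 in siANKRA2 cells. On the levels scaled to the deposited mean it was at least 14.9-fold higher. In Nutlin-3a its level was 9.73 in siControl, which is low-marked, 212 in siANKRA2 and 65.1 in siRFXANK cells. The log2 fold changes were 4.44 (SE 0.34, adjusted p = 9.8e-39) and 2.74 (SE 0.35, adjusted p = 3e-14). CCL3, CCL3L1 and CCL4, 3 genes of 1 cluster, were thus higher after both knockdowns in Nutlin-3a. They do not count as independent genes, since CCL3 chose the group and CCL3L1 may share reads with it. CCL7 had low levels in siControl cells, with a deposited comparison past the threshold for a rise after siANKRA2 in DMSO (adjusted p = 1.6e-06) and for a fall after siRFXANK in Nutlin-3a (adjusted p = 0.021). Against the floor and on scaled levels, the rise was at least 4.99-fold and the fall at least 1.52-fold.

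Of 33 other chemokine ligands, 13 had values. After siANKRA2 in DMSO 4 rose and 3 fell, with a median log2 fold change of 0.54, beside 24.3% and 24.5% of all genes. After siRFXANK in Nutlin-3a 3 rose and 2 fell, with a median of 0.03, beside 19.8% and 19.6% of all genes. CCL26, the eotaxin that attracts eosinophils, has a deposited mean of 66.2 and was picked after its values were seen. It rose 5.11-fold after siANKRA2 (log2 fold change 2.35, SE 0.25, adjusted p = 4.2e-20) and 5.07-fold after siRFXANK (2.34, SE 0.25, adjusted p = 9.7e-20) in DMSO, and rose in both comparisons in Nutlin-3a. CXCL14, a constitutively expressed chemokine of epithelia, fell after siANKRA2 in DMSO (log2 fold change -2.02, SE 0.21, adjusted p = 4.9e-21) and with Nutlin-3a in siControl cells (-2.46, SE 0.21, adjusted p = 3.5e-30). It also fell after siANKRA2 in Nutlin-3a (-1.48, SE 0.22, adjusted p = 1.4e-10). After siRFXANK it fell in DMSO (-0.56, SE 0.21, adjusted p = 0.019) and in Nutlin-3a (-1.32, SE 0.22, adjusted p = 1.6e-08). CXCL16, a membrane-bound ligand of CXCR6, rose after siANKRA2 in DMSO by a small amount (0.23, SE 0.07, adjusted p = 0.0039). CX3CL1, the membrane-bound fractalkine, rose after siRFXANK in Nutlin-3a (0.38, SE 0.10, adjusted p = 0.00047). Of 22 receptors, 12 had values, and after siANKRA2 in DMSO 1 rose and 1 fell, beside 24.3% and 24.5% of all genes. The fall was ACKR3, a scavenging receptor of CXCL12, with a log2 fold change of -0.97 (SE 0.10, adjusted p = 9.1e-22), and it rose after siRFXANK in DMSO (0.36, SE 0.09, adjusted p = 0.00017) and fell after siRFXANK in Nutlin-3a (-1.17, SE 0.10, adjusted p = 4e-33).

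NF-kB is the factor best known for switching on inflammatory chemokines. All 21 genes of its signalling list had values. After siANKRA2 in DMSO 15 rose and 4 fell, beside 24.3% and 24.5% of all genes, with a median log2 fold change of 0.49. TRAF1, an NF-kB target that modulates TNF receptor signalling, rose most among the abundant genes (log2 fold change 3.51, SE 0.10, adjusted p = 8.8e-292), and CHUK, an IkB kinase subunit, fell most (-1.27, SE 0.07, adjusted p = 2.4e-80). After siANKRA2 in Nutlin-3a 12 rose and 4 fell, beside 24.6% and 25.5%. After siRFXANK 9 rose and 5 fell in DMSO, beside 20.9% and 21.2%. In Nutlin-3a 12 rose and 3 fell after siRFXANK, beside 19.8% and 19.6%, and TRAF1 was higher (1.94, SE 0.09, adjusted p = 2.2e-107) and the NF-kB subunit RELA lower (-0.92, SE 0.04, adjusted p = 1.6e-106). The Nutlin-3a response of 13 of the 21 was lower in siANKRA2 than in siControl cells and that of 0 higher, beside 12.5% and 11.4% of all genes.

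Of the 20 inflammatory cytokines and receptors listed, 16 had values. After siANKRA2 in DMSO 12 rose and 3 fell, beside 24.3% and 24.5% of all genes, with a median of 0.63. IL11, an IL-6 family cytokine, rose most among the abundant ones (log2 fold change 3.48, SE 0.07, adjusted p listed as 0), and the interleukin-1 receptor IL1R1 fell most (-1.02, SE 0.14, adjusted p = 4.1e-12). In Nutlin-3a 6 rose and 7 fell after siANKRA2, beside 24.6% and 25.5%, with a median of -0.28. After siRFXANK 9 rose and 3 fell in DMSO, beside 20.9% and 21.2%, led by IL18 (1.13, SE 0.05, adjusted p = 5.1e-113), and 6 rose and 4 fell in Nutlin-3a, beside 19.8% and 19.6%, led by IL11 (0.90, SE 0.07, adjusted p = 1.2e-37). With Nutlin-3a in siControl cells 10 rose and 0 fell, beside 21.9% and 21.2%.

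AP-1 and C/EBP factors bind beside NF-kB at several chemokine promoters. After siANKRA2 in DMSO 7 of 10 rose and 1 fell, beside 24.3% and 24.5% of all genes, FOSL1 rising most (log2 fold change 1.95, SE 0.06, adjusted p = 3e-198) and JUND falling (-1.20, SE 0.06, adjusted p = 3.6e-84). After siRFXANK in Nutlin-3a 1 rose and 6 fell, beside 19.8% and 19.6%, with a median of -0.33, and CEBPD fell most (-0.82, SE 0.11, adjusted p = 3.1e-12). Factors that act on AU-rich mRNAs, the class to which many chemokine transcripts belong, were 7 with values, of which 4 rose and 1 fell after siANKRA2 in DMSO, where the shares over all genes were 24.3% and 24.5%. ZFP36, which promotes their decay, rose after siANKRA2 in DMSO (1.49, SE 0.10, adjusted p = 6.1e-45). ZFP36 also rose after siRFXANK in DMSO (0.62, SE 0.11, adjusted p = 9.8e-08) and in Nutlin-3a (0.56, SE 0.10, adjusted p = 1.2e-07). Its paralog ZFP36L1 fell after siRFXANK in DMSO (-0.86, SE 0.03, adjusted p = 4.7e-148) and in Nutlin-3a (-0.94, SE 0.03, adjusted p = 1.2e-185). Of the 7, 2 rose and 2 fell after siRFXANK in DMSO, beside 20.9% and 21.2% of all genes. In Nutlin-3a 2 rose and 1 fell, beside 19.8% and 19.6%. Of 12 interferon response genes 9 had values, and after siANKRA2 in DMSO 2 rose and 4 fell, beside 24.3% and 24.5% of all genes, IFIT1 falling most (-1.92, SE 0.15, adjusted p = 4.3e-35). After siRFXANK in Nutlin-3a 5 rose and 1 fell, beside 19.8% and 19.6%, IFIT2 rising most (1.39, SE 0.11, adjusted p = 2.7e-37).

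**Figure D4:**
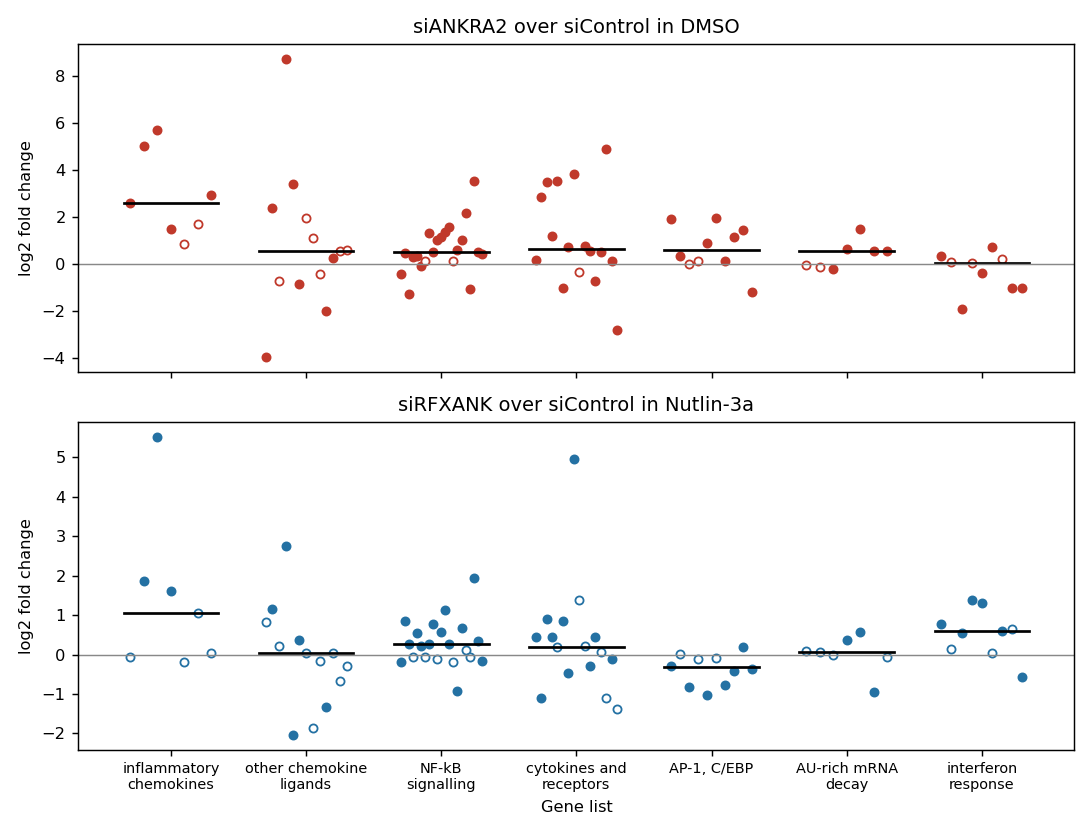
log2 fold change (y axis) of each measured gene of 7 lists (x axis), after siANKRA2 in DMSO in the upper panel and after siRFXANK in Nutlin-3a in the lower panel, with filled points for an adjusted p under 0.05 and black lines for the median of each list. The medians of the NF-kB list are 0.49 and 0.26, and those of the AP-1 and C/EBP list are 0.59 and -0.33.

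The genes most like CCL3 and CCL20 were sought among 18456 genes by Euclidean distance over 5 log2 fold changes, namely the Nutlin-3a response in siControl cells and the 4 knockdown comparisons, which share siControl libraries. The nearest gene to CCL20 was RGS4, an inhibitor of G protein signalling, at a distance of 1.23. It was followed by G0S2 at 1.55, FGF5 at 1.96, IL23A at 2.14 and TMEM154 at 2.18. The nearest gene to CCL3 was CLDN1, a tight junction protein, at 3.69, followed by INSL4 at 3.81, IL24 at 4.08, OLR1 at 4.24 and GOLGA7B at 4.37. The distances were smaller for CCL20 than for CCL3, which had the larger log2 fold changes in size. Both genes were chosen by knockdown values that enter the distance, so it is given as description. CLDN1 had log2 fold changes of 4.19 and 4.37 after siANKRA2 in DMSO and Nutlin-3a, and of 2.28 and 3.15 after siRFXANK. RGS4 had 4.65 and 3.66 after siANKRA2, and 0.01 and 0.96 after siRFXANK, where CCL20 had -0.36 and 1.86.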

How the data were processed

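RNA-seq libraries from U2OS cells were processed by the authors. The authors' processing notes name bcl2fastq 2.20.0.422, Trimmomatic 0.39, FastQC 0.11.9, cutadapt 2.10, SAMtools 1.10, Picard, featureCounts 1.6.5, DESeq2 1.20.0 and genome build hg38. The aligner, annotation and use of strand are not given in the sources used here. The 6 deposited tables were made by the authors with DESeq2 and were read as 1 joint fit. Each gene had the same mean throughout, and the siControl and siANKRA2 fold changes closed to within 1.4e-14 on the log2 scale. The number of libraries in that fit is not given in the sources used here. Levels scaled to the deposited mean assume that it is an even average over the 6 groups. Per gene they hold the authors' mean normalized count over the libraries of the fit (a signal value) and the deposited log2 fold change. They also hold its standard error on the log2 scale, the deposited Wald score, and the p-value of the authors beside its adjusted form (Benjamini-Hochberg). These are the authors' own comparisons and were used because no values per library were analysed here. The paper given for this series does not describe this experiment.

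From the tables, Python 3.11.15 with pandas 2.3.3 and scipy 1.17.1 was used to count genes past an adjusted p of 0.05, to derive the Nutlin-3a response in siRFXANK cells from 3 tables, to test differences of responses by a two-sided normal test with Benjamini-Hochberg adjustment over all genes, and to recover group means. A group mean and the gene's dispersion were fitted by least squares to the squared standard errors, with 3 libraries per group and means under 0.5 set to 0.5 in the variance. The code was tested on simulated data. Gene positions and transcripts came from GENCODE 29, which held 26659 of 26702 gene IDs (99.8%), and promoters came from RefSeq (GRCh38.p14). The members and the gene lists were chosen with earlier results of these data known. Genes named within a list were those with the largest rise and fall past the threshold and a deposited mean of at least 100.

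Alternatives were a threshold of 0.01, a log2 change of 1 or more in size, an adjustment limited to genes with a deposited mean of at least 10 or 100, an adjustment recomputed over each table, the other pair of tables for the siANKRA2 difference, and levels scaled to the deposited mean or set against a floor of 10. Bounds for CCL3, CCL4 and CCL7 against the floor, medians without CXCL5 and scaled levels per kb were added after the data were seen.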

Additional observations from a re-analysis of the deposited data

Results flagged for a closer look

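By a test of the difference itself, Nutlin-3a acted differently in knockdown and siControl cells for 3 results in members other than CCL3 and CCL20. Over all genes this difference was higher for 11.4% and lower for 12.5% with siANKRA2, and higher for 11.6% and lower for 9.64% with siRFXANK. The difference was -0.73 on the log2 scale for CCL2 in siANKRA2 cells (adjusted p = 0.044, and 0.052 from the knockdown tables), -1.76 for CCL5 in siANKRA2 cells (adjusted p = 0.025) and 1.55 for CXCL8 in siRFXANK cells (adjusted p = 8.3e-06). CXCL8 fell with Nutlin-3a in siControl cells and rose with it in siRFXANK cells. For siRFXANK a batch and the knockdown cannot be told apart. CCL3 and CCL20 are left out here because their knockdown values chose the group. Groups of 3 libraries with no value per library could not be examined for outlying libraries.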

How the results depend on the processing

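No paired analysis was possible because the files analysed here hold fitted comparisons, without values for single libraries. Leaving out each replicate, a replicate block and another count model were not run for the same reason. The alternatives to the threshold leave each fold change as it is, so no direction could change. Single members lost their call in 5 cases at a threshold of 0.01, in 6 cases with a log2 change of 1 or more in size and in 1 case (CCL2) with the other pair of tables. Calls were gained in 2 cases (CCL20 and CXCL3) when genes with a deposited mean under 10 were left out and in 1 case (CCL20) at a mean of 100. These cases include CCL3 and CCL20, whose values are a description. The number of members past the threshold stayed within 1.5 times the reported number in the 6 tables, the derived siRFXANK response and the siRFXANK difference. For the siANKRA2 difference it was 3 of 6 with CCL20 counted, whose value is a description, and 2 of 4 without CCL3 and CCL20. The number was 1 (CCL20) at a threshold of 0.01 and 1 (CCL5) with a log2 change of 1 or more in size, both stricter by construction. Leaving out CXCL5, scaling the levels per kb and setting CCL4 and CCL7 against the floor were chosen after seeing the data. Of 42 recovered levels, 4 were at or under a floor of 3, and 12 at or under a floor of 10. The number was 5 after scaling to the deposited mean, and 23 of 42 ranks per kb then changed. With no depth per library, a level near the floor gives no firm fold, which touches CXCL5 in most comparisons and CCL3 and CCL5 in siControl DMSO cells.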
